A study of Drosophila melanogaster with 3 samples.

Results

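The genes described here are 10 heat shock genes of Drosophila melanogaster, named by a fixed list and taken from 13968 annotated protein-coding genes. Of these, 7 lie close together in the 67B cluster of chromosome arm 3L, namely Hsp22, Hsp23, Hsp26, Hsp27, Hsp67Ba, Hsp67Bb and Hsp67Bc. Hsp83 lies alone elsewhere on 3L, and Hsp68 and Hsc70-4 lie at separate loci on 3R. Each gene was described by every listed ChIP-seq region within 2 kb of its annotated span, with the region's signal, its rank in its list and the distance of its summit (the position of highest signal) from the gene's transcription start sites.

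The assay was chromatin immunoprecipitation with sequencing of chiffon (chif), the fly relative of Dbf4, the regulatory partner of the Cdc7 kinase that activates replication origins. Embryos of both sexes, collected whole between 0 and 24 h of age, came from a single transgenic line that stably carries chif-RB fused at its C-terminus to GFP, and an antibody against GFP was used. There was 1 group with 3 biological replicates, so no condition was compared with another, and no library from untagged embryos was analysed here. Each list mixes the cells and stages of whole embryos.

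Heat shock proteins are chaperones that hold or refold other proteins. The small heat shock proteins bind unfolding proteins, members of the Hsp70 family refold them with ATP, and the Hsp90 family matures kinases and receptors. On heat stress the factor Hsf binds heat shock elements, which are alternating GAA and TTC units, and the promoters of the inducible genes are known in flies for a TATA box, for GAGA factor and for a polymerase that waits just past the start site. Several of the 67B genes are also switched on in development without heat, and Hsc70-4 is expressed constitutively.

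The deposited data were lists of regions on genome build dm6. The pooled list was called on all 3 replicates together and each replicate also had its own list, every one holding 30000 regions down into background. The authors' thresholded list of 5035 regions was the 5035 regions of highest signal of the pooled list. In each replicate list the 5035 regions of highest signal are called its top regions below. Signal is the peak caller's own score and is compared only within a list, whereas ranks (rank 1 is strongest) can be set side by side because the lists have the same length. Read depth was unknown, since the lists hold no counts. Replicate 2 stood apart from the others: 34.1% of all protein-coding genes had a summit within 500 bp of a start site in its list, against 52.5% in replicate 1 and 54.4% in replicate 3.

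The strongest pooled region near the 10 genes lay directly before Hsp27, and its sequence is shown first because it holds no heat shock element pair. The next 2 sequences are the regions before Hsc70-4 and Hsp26, in which a pair lies close to the summit. All are from the RefSeq Release 6 genome, the dm6 assembly, written 5′ to 3′ on the strand of the gene. Capitals mark heat shock element pairs (GAANNTTC or TTCNNGAA) and GAGAG on either strand. The Hsp27 region is 3L:9383784-9384042 on the plus strand, the Hsc70-4 region is 3R:15242424-15242577 on the plus strand, and the Hsp26 stretch is the 300 bases before its outer start site, 3L:9377428-9377727 on the minus strand.
Hsp27: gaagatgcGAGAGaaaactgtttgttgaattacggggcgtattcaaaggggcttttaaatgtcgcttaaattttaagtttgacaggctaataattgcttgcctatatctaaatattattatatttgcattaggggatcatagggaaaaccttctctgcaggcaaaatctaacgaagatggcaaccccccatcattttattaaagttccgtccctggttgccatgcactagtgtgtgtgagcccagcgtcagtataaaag
Hsc70-4: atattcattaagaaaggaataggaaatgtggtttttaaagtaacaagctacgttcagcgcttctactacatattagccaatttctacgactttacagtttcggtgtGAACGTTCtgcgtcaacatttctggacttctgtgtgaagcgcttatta
Hsp26: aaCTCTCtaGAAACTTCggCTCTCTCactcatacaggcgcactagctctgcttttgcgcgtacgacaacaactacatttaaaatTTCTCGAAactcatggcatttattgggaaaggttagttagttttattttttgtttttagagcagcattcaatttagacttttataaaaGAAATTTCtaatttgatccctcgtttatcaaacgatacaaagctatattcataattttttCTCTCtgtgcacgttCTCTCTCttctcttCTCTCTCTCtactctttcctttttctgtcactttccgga

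The next 2 sequences are upstream stretches of 250 bases with 2 and 6 pairs but no thresholded summit within 500 bp of the start site. Hsp23 is shown at 3L:9381632-9381881 on the plus strand and Hsp68 at 3R:24057311-24057560 on the minus strand, where 4 of its 6 pairs overlap in 1 run.
Hsp23: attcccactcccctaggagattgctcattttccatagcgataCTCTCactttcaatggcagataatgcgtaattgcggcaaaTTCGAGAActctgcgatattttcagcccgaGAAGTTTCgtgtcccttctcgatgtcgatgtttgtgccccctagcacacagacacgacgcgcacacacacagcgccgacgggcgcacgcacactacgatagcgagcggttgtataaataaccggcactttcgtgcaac
Hsp68: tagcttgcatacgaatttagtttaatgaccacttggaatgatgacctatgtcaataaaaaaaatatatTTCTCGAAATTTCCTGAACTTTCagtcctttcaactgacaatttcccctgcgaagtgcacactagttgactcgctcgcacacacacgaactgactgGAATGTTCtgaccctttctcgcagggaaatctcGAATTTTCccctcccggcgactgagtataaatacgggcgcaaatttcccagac

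All 10 genes had a thresholded region within 2 kb, against 37.4% of all protein-coding genes. These came from only 9 distinct regions, and 3 of them served all 7 genes of 67B. In the pooled list all 10 genes again had a region within 2 kb, where 79.6% of all genes did. With the summit required within 500 bp of a start site, 5 of the 10 genes had a thresholded region, namely Hsp22, Hsp26, Hsp27, Hsp83 and Hsc70-4, against 20.6% of all genes. The other 5 had a thresholded region nearby whose summit was within 500 bp of a neighbour's start but not of their own. These were Hsp23 through Hsp27, Hsp67Ba through Hsp26, Hsp67Bb and Hsp67Bc through Hsp22, and Hsp68 through SMC1. The region of Hsp22 also lies inside the span of Hsp67Bb, with its summit 612 bp downstream of the nearer Hsp67Bb start. In the pooled list 9 of the 10 had a summit within 500 bp of a start site, all but Hsp68, against 52.3% of all genes. Because the genes were named with earlier results of these data known, these counts were set beside the shares of all genes and not tested.

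Replicates differed in how many of the 10 genes they listed. Replicate 1 listed a summit within 500 bp of a start site at 9 genes, replicate 2 at 6 and replicate 3 at 9, a mean of 8 ± 1.73 (SD, n = 3). Among top regions the counts were 7 in replicate 1 (21.1% of all genes), 4 in replicate 2 (15.9%) and 5 in replicate 3 (20.9%), a mean of 5.33 ± 1.53 (SD, n = 3). Hsp23, Hsp26, Hsp27, Hsp83 and Hsc70-4 were listed in all 3 replicates, a state shared by 22.8% of all genes, and Hsp26, Hsp27, Hsp83 and Hsc70-4 were among the top regions of all 3, as were 11.7% of all genes. Without replicate 2 the genes listed in every remaining replicate went from 5 to 9, while the share of all genes went from 22.8% to 46.1%. The 5 genes with a thresholded summit at a start site became 3 under a further requirement. Each of the 3 replicates had to place the summit of a top region inside the thresholded region. The share of all genes went from 20.6% to 11.3%. With that requirement the count was also 3 without replicate 1 or without replicate 3, and it was 5 without replicate 2.

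**Figure D1:**
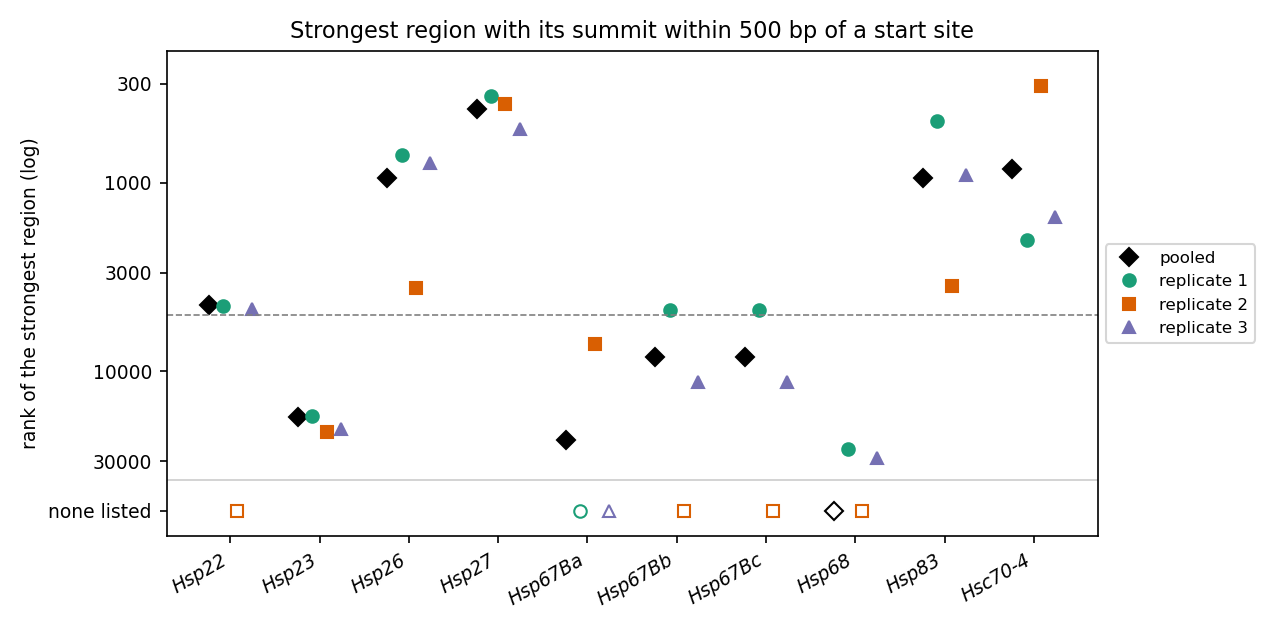
Rank of the strongest region with its summit within 500 bp of a start site of each gene (logarithmic axis, strongest at the top), in the pooled list and in the 3 replicate lists; hollow symbols mark lists without such a region and the dashed line is rank 5035. Hsp26, Hsp27, Hsp83 and Hsc70-4 sat above the line in every list, and Hsp23 sat below it in every list.

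Hsp27 encodes a small heat shock protein found in the nucleus, and its annotated span is 3L:9384063-9385694 on the plus strand (FBgn0001226). Its region, 259 bp wide, had a pooled signal of 508 and rank 409, with the summit 140 bp upstream of the single start site in sequence annotated as intergenic. In the replicates it ranked 349, 384 and 523 (replicates 1, 2 and 3), with signals of 196, 123 and 190 within their own lists. All 3 replicates thus placed it among their strongest regions, and their summits lay 133, 106 and 141 bp upstream. The largest rank was 1.499 times the smallest, and 27.1% of the thresholded regions found in all 3 replicates had a smaller ratio. Across those 4050 regions the median ratio was 1.88, with quartiles of 1.47 and 2.70.

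Hsp26, a cytoplasmic small heat shock protein also made in the germ line, spans 3L:9376418-9377427 on the minus strand (FBgn0001225). The region at its start, 3L:9377348-9377757, had a pooled signal of 334 and rank 942. Its summit lay 126 bp upstream of the outer start site and 178 bp upstream of the inner one, the start site that has a TATA motif. Replicates 1, 2 and 3 ranked it 716, 3624 and 787, with signals of 142, 27.7 and 157. Replicate 2 stood below the other two, so the ratio of largest to smallest rank was 5.06, above that of 91.8% of the 4050 thresholded regions found in all 3 replicates.

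Hsp22 encodes the mitochondrial small heat shock protein and spans 3L:9372931-9374964 on the plus strand (FBgn0001223). Its region, 3L:9373338-9373747, was weak, with a pooled signal of 118 and rank 4440, so that 11.8% of thresholded regions had a lower signal. The summit lay 454 bp upstream of the inner start site, in the 5′ UTR of the long Hsp22 transcript and the 3′ UTR of Hsp67Bb (annotated as CG4456), whose span overlaps that of Hsp22. Replicate 1 ranked it 4521 and replicate 3 ranked it 4704, and replicate 2 listed no summit within 500 bp of either start site. With a limit of 250 bp in place of 500 bp the thresholded call at Hsp22 was lost.

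The remaining genes of 67B had regions at their start sites only below the threshold. Hsp67Bb (3L:9372722-9374964, plus strand) and Hsp67Bc (3L:9371511-9372497, minus strand), a gene for a small heat shock protein, start close together in opposite directions and shared 1 pooled region at rank 8428, whose summit lay 7 bp downstream of the Hsp67Bb start and 232 bp upstream of the Hsp67Bc start. Replicate 1 ranked that region 4717, among its top regions, replicate 3 ranked it 11427 and replicate 2 did not list it. Hsp23, a small heat shock protein gene at 3L:9381882-9382765 on the plus strand, had its strongest pooled region at rank 17416, with the summit 279 bp inside the gene. Its replicate ranks were 17204, 20976 and 20288, the narrowest spread of the 5 genes listed in all 3 replicates, with summits 35 bp upstream and 412 and 355 bp downstream of the start. The ranks were alike, but replicate 1 placed its summit upstream of the start and the other replicates placed theirs inside the gene. Hsp67Ba (3L:9377802-9379534, minus strand) was listed in replicate 2 at rank 7140 and in the pooled list at rank 23127, and in neither of the other replicates.

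**Figure D2:**
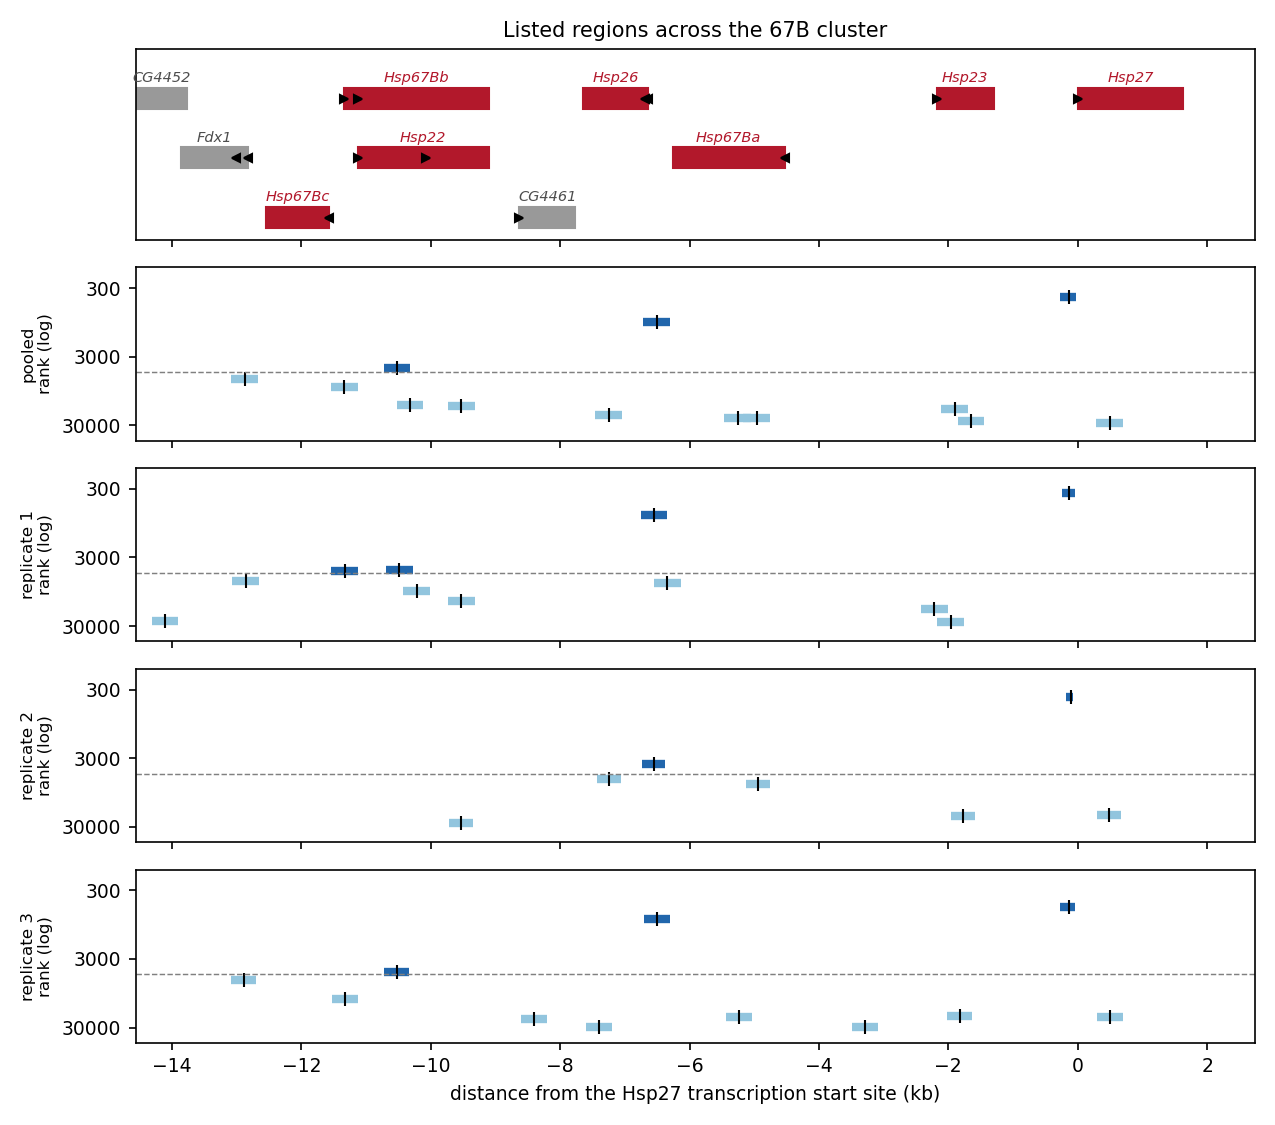
Regions listed across the 67B cluster, by distance from the Hsp27 start site in kb, with protein-coding genes above (red for the 10 genes, grey for others, arrowheads at start sites). Each bar is a region at its rank (logarithmic axis, strongest at the top), ticks are summits, dark blue marks rank 5035 or stronger and the dashed line is rank 5035. Only the regions before Hsp27 and Hsp26 are dark blue in all 4 lists.

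The cluster from the end of Hsp67Bc to the end of Hsp27, 3L:9371511-9385694, spans 14184 bp and holds 8 protein-coding genes, CG4461 being the one that is not among the 10. It held 3 thresholded summits and 12 pooled summits. Of 9435 genome windows of the same length, 4.85% held at least 3 thresholded summits and 1.39% at least 12 pooled ones, with medians of 0 and 2. Gene-dense windows hold more: of 106 windows with at least 8 protein-coding genes, 13 (12.3%) held at least 3 thresholded summits and 3 (2.83%) at least 12 pooled summits.

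Hsp83, the fly cytosolic Hsp90, spans 3L:3192969-3197059 on the plus strand (FBgn0001233) and was the only one of the 10 genes with 4 thresholded regions within 2 kb. The strongest, 3L:3193013-3193202, is 190 bp wide and had a signal of 333 and rank 944. Its summit lay 101 bp downstream of the outer start site, in the annotated 5′ UTR, and 146 bp upstream of the inner start site, which has a TATA motif. Replicates 1, 2 and 3 ranked the region at the start sites 473, 3535 and 908, with signals of 171, 28.1 and 144. Replicate 2 was again the weakest, and its summit fell just outside the narrow pooled region.

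A further region, 3L:3194175-3194345, lay inside the gene in the intron of Hsp83, with its summit 1055 bp past the inner start site. It is 171 bp wide and had a pooled signal of 200 and rank 2171. Its replicate ranks of 2396, 1974 and 2542 gave a ratio of 1.29, and 11.9% of the 4050 thresholded regions found in all 3 replicates had a smaller one. Here replicate 2 held the smallest of the 3 ranks, unlike at the start of the same gene. The sequence of this intronic region is shown because no protein-coding start site lay within 500 bp of its summit, and it has neither a heat shock element pair nor GAGAG.
Hsp83 intron: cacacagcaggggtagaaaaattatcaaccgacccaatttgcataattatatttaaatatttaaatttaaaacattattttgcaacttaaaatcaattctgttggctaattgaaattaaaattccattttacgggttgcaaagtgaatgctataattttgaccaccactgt

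The other 2 regions near Hsp83 lay at the starts of its neighbours. The region 3L:3198942-3199351, of rank 1473, had its summit 100 bp upstream of CG32276 and 57 bp downstream of the start of gry, and the region 3L:3197507-3197916, of rank 4466, had its summit 81 bp upstream of CG14966.

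Hsc70-4, the main constitutive cytosolic Hsp70 of the fly and the chaperone that strips clathrin from vesicles, spans 3R:15242687-15246614 on the plus strand (FBgn0266599). Its region is 154 bp wide, with a pooled signal of 351 and rank 852, and lies between Hsc70-4 and tefu, the fly ATM kinase gene, which runs in the opposite direction. The summit lay 166 bp upstream of the first Hsc70-4 start and 285 bp upstream of tefu, so the region cannot be assigned to one of the pair. Replicates 1, 2 and 3 ranked it 2005, 306 and 1523, with signals of 79.8, 138 and 108. In contrast to Hsp26 and Hsp83, replicate 2 held by far the smallest rank, and the ratio of 6.55 exceeded that of 94.9% of the 4050 thresholded regions found in all 3 replicates. Among those regions, replicate 2 gave the weakest rank in 36.5%.

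Hsp68, an inducible Hsp70, spans 3R:24055080-24057310 on the minus strand (FBgn0001230) and had no pooled summit within 500 bp of its start. Replicate 1 listed one at rank 25883, replicate 3 at rank 28914 and replicate 2 none. The only thresholded region within 2 kb, 3R:24058056-24058465 of rank 4778, had its summit 26 bp upstream of SMC1, a cohesin subunit gene, and 951 bp upstream of Hsp68.

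**Figure D3:**
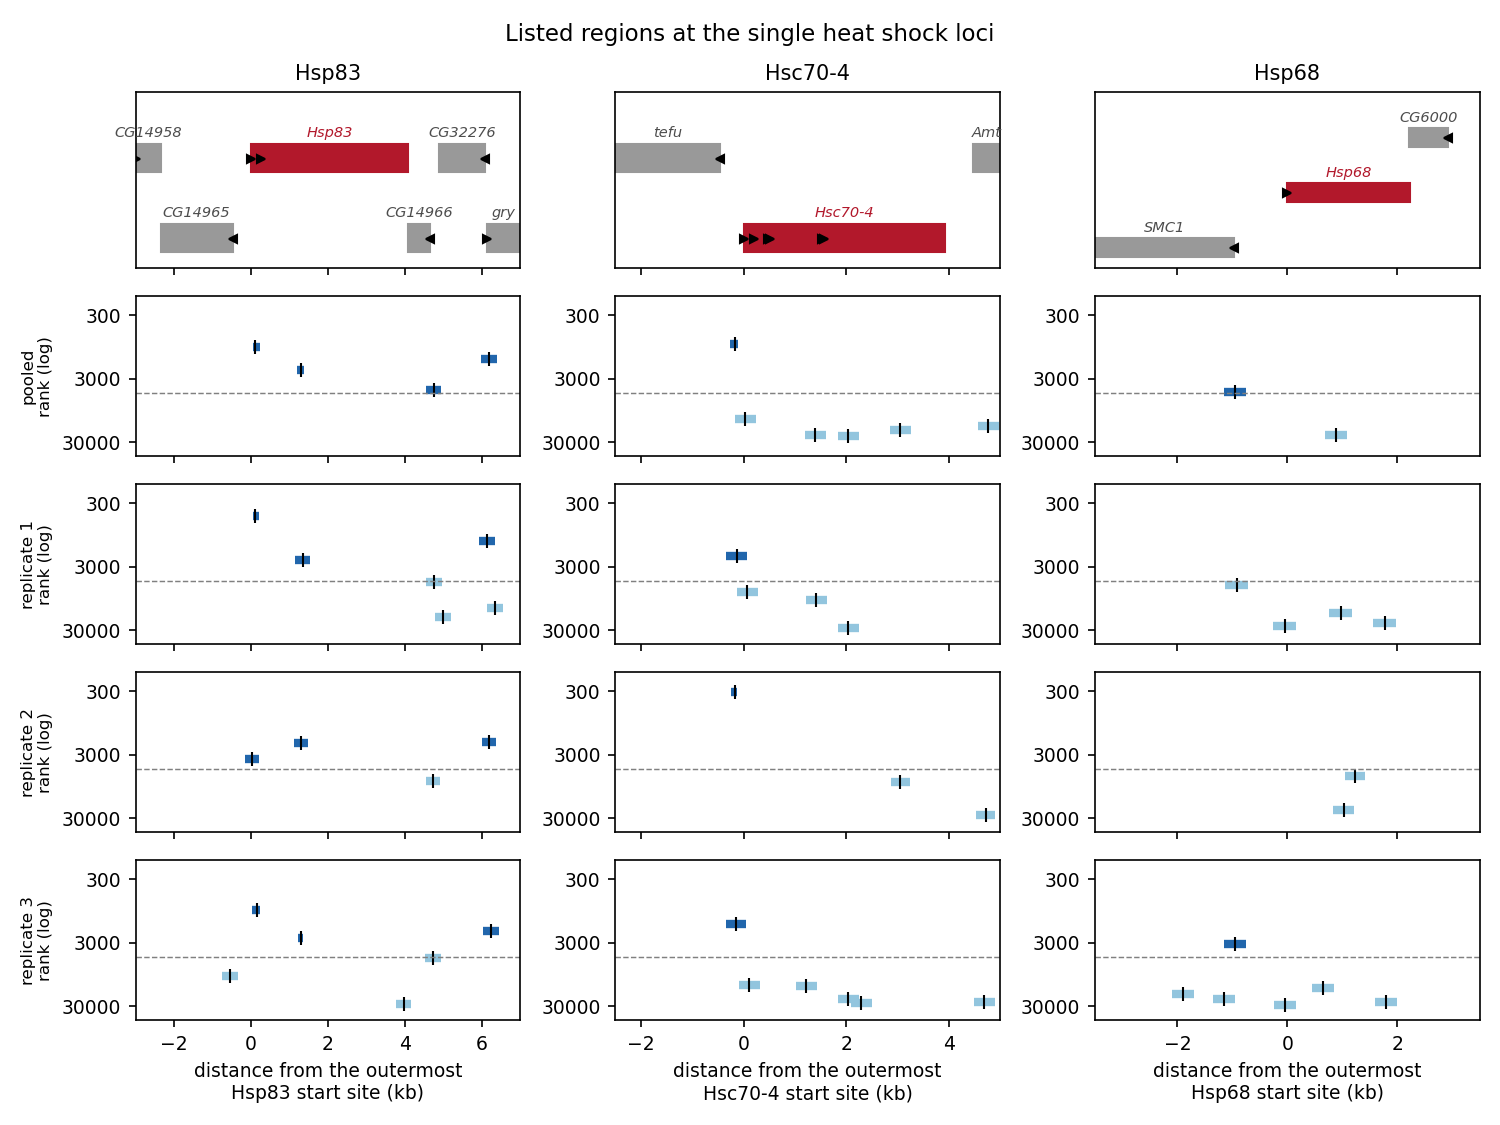
Regions listed at Hsp83, Hsc70-4 and Hsp68, by distance in kb from the outermost start site of each gene, drawn so that each runs left to right; bars, ticks, colours and the dashed line at rank 5035 mark regions, summits, strength and threshold as in the map of 67B. The Hsp83 column shows 4 dark blue pooled regions, and the Hsp68 column shows its single one at the start of SMC1.

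Ranked by their strongest pooled region at a start site, the genes ran from Hsp27 (409) through Hsc70-4 (852), Hsp26 (942), Hsp83 (944), Hsp22 (4440), the pair Hsp67Bb and Hsp67Bc (8428) and Hsp23 (17416) to Hsp67Ba (23127). The mean log10 rank over the 3 replicates was 2.62 ± 0.09 (SD, n = 3) for Hsp27, 2.99 ± 0.44 for Hsc70-4, 3.06 ± 0.45 for Hsp83 and 3.10 ± 0.40 for Hsp26, so Hsc70-4, Hsp83 and Hsp26 did not differ beyond their spread. Hsp27 had the smallest mean, but its spread overlapped those of Hsc70-4 and Hsp83. In replicate 2 Hsc70-4 ranked 306, ahead of Hsp27 at 384. Hsp23, at 4.29 ± 0.05, lay apart from all 4 of these genes. The median pooled rank over the 9 genes was 4440, against 6945.5 over the 7300 protein-coding genes with a pooled summit at a start site, whose quartiles were 2920.75 and 13843.25. Regions narrower than the usual 410 bp made up 26.0% of the thresholded list, and those at Hsp27, Hsc70-4, Hsp83 and the Hsp83 intron were among them.

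The strong summits lay at a similar distance before the TATA motif's start site. Measured from that start site, the pooled summit was 140 bp upstream at Hsp27, 146 bp at Hsp83, 166 bp at Hsc70-4 and 178 bp at Hsp26. The replicate summits ranged from 106 to 141 bp upstream at Hsp27, 134 to 167 bp at Hsc70-4, 132 to 188 bp at Hsp26 and 94 to 216 bp at Hsp83. These ranges overlap, and at Hsp22 the thresholded summit lay farther out, at 454 bp. From the nearest start site instead, the pooled summit was 126 bp upstream at Hsp26 and 101 bp downstream at Hsp83. No distances over all genes are given beside these values.

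TATAAA on the gene's strand between positions -40 and -20 was present at 9 of the 10 genes, all but Hsp67Ba, and at 8.46% of all protein-coding genes. Genes with this motif had a thresholded summit within 500 bp of a start site in 9.05% of 1182 cases, against 21.7% of the genes without it. Of the 9 heat shock genes with the motif, 5 had such a summit. This difference was described and not tested.

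A heat shock element pair lay within 250 bp upstream of a start site at 8 of the 10 genes, against 16.9% of all genes, and Hsp67Bb and Hsp67Bc share a single pair between their starts. Of these 8 genes, 4 had a thresholded summit, and over all genes the share with such a summit was 21.3% with a pair and 20.5% without, close to each other. Counted per start site, over 19276 of them, the shares were 16.4% with a pair and 18.7% without, in the other order. Hsp27, the gene with the strongest pooled region, had no pair in that window and 1 pair at positions -338 to -331. Hsp68 had 6 pairs, including 3 overlapping triples (3 alternating units in a row), and no thresholded summit at its start. Triples within 250 bp occurred at 0.473% of all genes and among the 10 at Hsp68 and Hsc70-4. The Hsc70-4 triple lay before inner start sites without a thresholded summit within 500 bp, and not in the thresholded region of that gene. The pair of Hsp26 nearest its pooled summit was centred 1.5 bp from it, that of Hsc70-4 12.5 bp and that of Hsp83 81.5 bp. At Hsp26 the summits of replicates 1, 2 and 3 were shifted from the pooled one by -38, -46 and 10 bp along the chromosome. The 1.5 bp is smaller than each of these shifts. At Hsc70-4 the shifts were 32, -1 and 25 bp. No pair lay in the 201-bp windows centred on the pooled summits of Hsp27 and Hsp22. Pairs were found in 10.9% of the 201-bp windows centred on the 5035 thresholded summits.

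GAGAG, read on both strands and counting overlapping matches, lay within 250 bp upstream at 5 of the 10 genes and at 32.4% of all genes. Genes with it had a thresholded summit in 24.1% of cases and genes without it in 19.0%. Counted per start site, over 19276 of them, the order was reversed, at 17.5% with a match and 18.7% without. Neither difference was tested. Hsp26 had 6 matches within 250 bp of its outer start site. Hsp27 had none in that window, but its region holds 1 match farther out, at positions -271 to -267. The Hsc70-4 region holds none, so strong regions with and without a match both occurred. A match of letters is a description of the sequence and was not taken as a bound site.

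**Figure D4:**
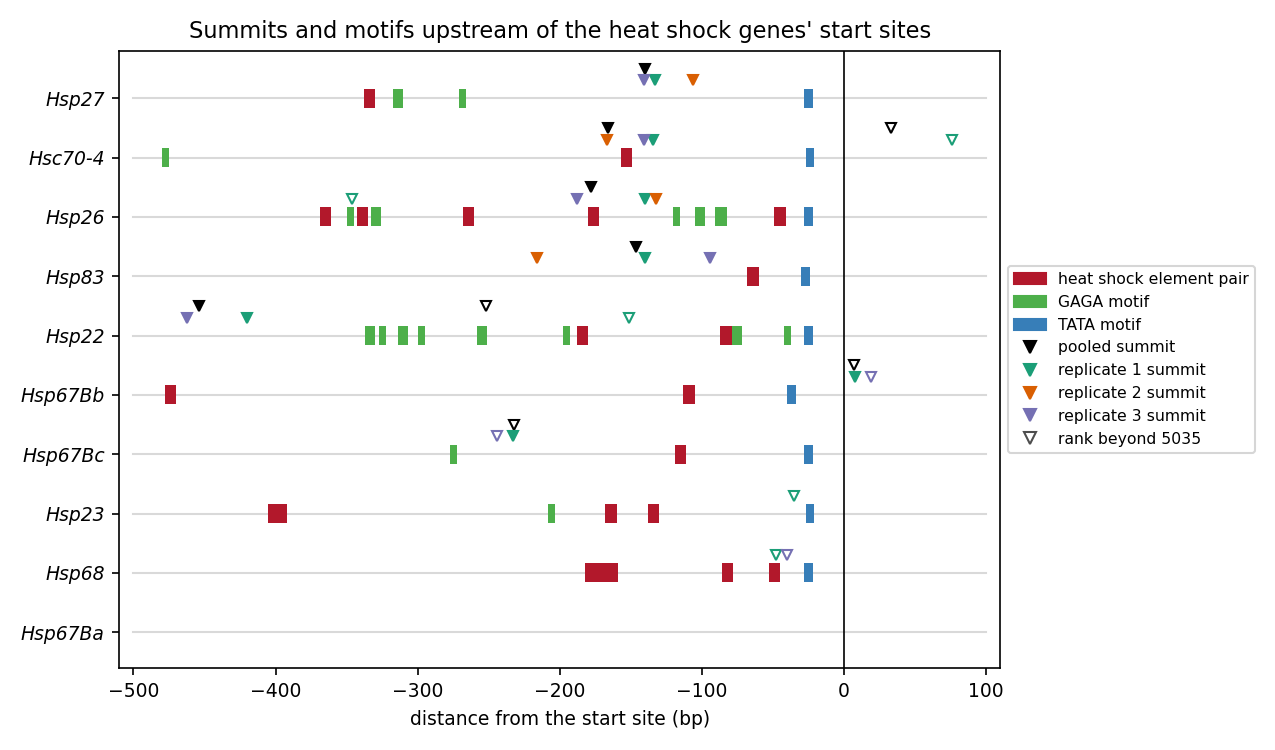
Summits (triangles, pooled drawn higher, hollow where the rank is beyond 5035) and motif matches (boxes) from 500 bp upstream to 100 bp downstream of the start site with a TATA motif, or of the only start site for Hsp67Ba; motif matches were searched upstream only. Filled triangles of Hsp27, Hsc70-4, Hsp26 and Hsp83 fall between 94 and 216 bp upstream, whereas the boxes differ from gene to gene.

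Related chaperone genes were counted in the same way, from lists of 58 genes outside the 10, of which 16 (27.6%) had a thresholded summit within 500 bp of a start site. The inducible Hsp70 genes of 87A and 87C had none in any list, 0 of 6. They are near-identical copies, and how reads that map to several places were handled is not given in the sources used here, so their absence is uncertain. Other small heat shock protein genes had 0 of 5, and the constitutive relatives of Hsp70 had 1 of 5, Hsc70-5, the mitochondrial Hsp70, at rank 1967. Hsp70 co-chaperones had 5 of 9, led by mrj at rank 252, DnaJ-H at rank 1522 (a summit shared with Sirt1), both of the DnaJ family, and stv, a BAG-domain protein, at rank 2124. The region at mrj ranked 208, 362 and 269 in the replicates, ahead of Hsp27 in each of them.

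Hsp90 co-chaperones and relatives had 3 of 9: CG1416 at rank 1914 (shared with step), Gp93, the Hsp90 of the endoplasmic reticulum, at rank 3231, and the kinase co-chaperone Cdc37 at rank 3424 (shared with dlt and alpha-Spec). Chaperonins had 2 of 14, CG11267 at rank 1046 and CCT3 at rank 3179 (shared with CG10324), a share below that of all genes. Of 10 genes for factors known from heat shock promoters, 5 had a thresholded summit. They were led by Nelf-E, of the complex that holds paused polymerase, at rank 595 (shared with RpL14), Trl, which encodes GAGA factor, at rank 830, and Nelf-A at rank 1952 (shared with CG3337). Hsf itself had no summit at a start site in any list.

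**Figure D5:**
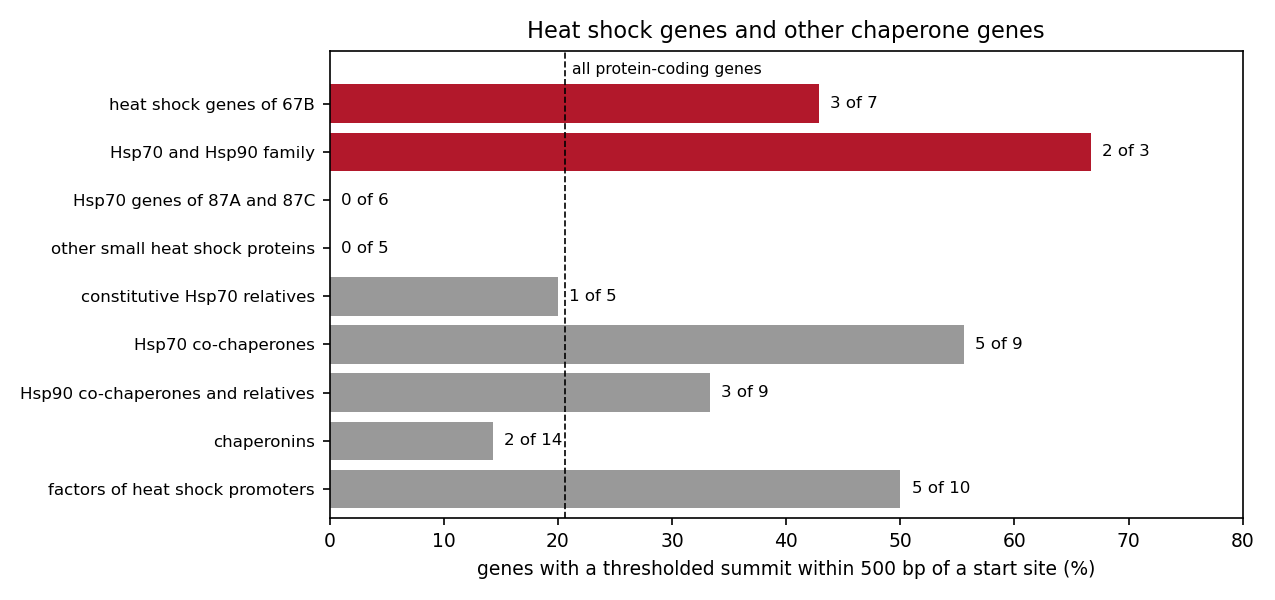
Share of genes in each list with a thresholded summit within 500 bp of a start site (bars from 0, in percent; red for the 10 genes, grey for related lists), with the count beside each bar and a dashed line at 20.6%, the share of all protein-coding genes. Hsp70 co-chaperones reached 5 of 9, and the Hsp70 genes of 87A and 87C had 0 of 6.

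The genes whose ranks were most like those of a heat shock gene were found by the sum of absolute differences in log10 rank over the 3 replicate lists, among 3185 genes listed in all 3. Nearest to Hsp27 were sti and tral, which share a region ranked 304, 382 and 477 in replicates 1, 2 and 3, and Mal-A5. Hsp26 was nearest to CG3698 and tzn, with a shared region ranked 961, 3909 and 703, and to RpL17, a ribosomal protein gene. For Hsp83 they were lace, ranked 651, 2538 and 917, Toll-7 and RpL17. For Hsc70-4 they were tefu, through the same region, and Ice1 and vir, which share a region ranked 2067, 298 and 2362. The closest to Hsp23 were SmydA-1, CG7884 and unc80.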

How the data were processed

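ChIP-seq regions from 3 biological replicates (1 technical replicate each) of 1 group of whole embryos were used, from chromatin sonicated to 200 to 800 bp, per the labels. The authors deposited regions on dm6 and dm3, and the dm3 copies were not used here. Per the labels and the notes deposited with the samples, 1 control file served every dm6 list and the thresholded list came from the irreproducible discovery rate. Which aligner and caller were run, and with what options, is not given in the sources used here. A deposited region carries a signal, the authors' caller score with no stated scaling, the −log10 of a q-value, which has one same highest value in 4826 of the 5035 thresholded regions, and, as another column, the summit's offset, in the order of the narrowPeak format. Signal was therefore used for ranking and only within a list. It was checked that the 5035 thresholded regions are the 5035 strongest pooled regions.

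Start sites and gene spans came from the Ensembl annotation BDGP6.54, release 115, and sequences from the RefSeq Release 6 genome, which is the dm6 assembly. Python 3.11.15 with pandas 2.3.3, numpy 2.4.6 and matplotlib 3.10.9 was used. A region counted as near a gene within 2 kb of its span, and at a start site with its summit within 500 bp, and positions are counted from 1. A replicate backed a thresholded region where the summit of one of its top regions lay inside it. Matching of regions to genes and motifs was tested on simulated data. All 68 symbols of the lists matched, 5 of them through an older symbol. Named genes were the 10 heat shock genes, neighbours with a start site at their strong summits, up to 3 of each related list by pooled signal among those with a thresholded summit, Hsf and mrj's replicate values added after their values were seen, and the 3 genes most alike in rank. The genes and lists were chosen with earlier results of these data known. With 1 group no test between groups was possible, and shares of all genes are printed in place of one. Alternatives were other distances, the stronger part of the thresholded list, regions backed by all replicates, leaving out each replicate, and, chosen after seeing the data, counting only regions whose nearest start site belongs to the gene.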

Additional observations from a re-analysis of the deposited data

How the results depend on the processing

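Shares of all protein-coding genes are given beside each count. Where a count changed, its share moved in the same direction. At some settings the share moved and the count did not. With a limit of 5 kb in place of 2 kb, for example, all 10 genes still had a thresholded region, and the share was 50.5%. The count of 10 genes with a thresholded region within 2 kb (37.4%) fell to 6 (22.9%) when only the stronger part of the list was kept. It was 5 (21.3%) when the region's nearest start site had to belong to the gene, an alternative chosen after seeing the data. With regions backed by all 3 replicates it was 6 (23.7%). The thresholded list cannot be remade without a replicate, so leaving one out meant backing by the other replicates, which gave 6 to 9 (24.8% to 31.5%): 6 without replicate 1 or 3, as with all 3, and 9 without replicate 2. The count of 5 genes with a thresholded summit at a start site (20.6%) was 3 (Hsp26, Hsp27 and Hsc70-4, 11.3%) with backing by all 3 replicates, where replicate 2 placed the Hsp83 summit outside the region. Under the same backing it was 3 to 5 (12% to 16.6%) with a replicate left out, and 5 only without replicate 2. The count of 5 genes listed in all 3 replicates (22.8%) ranged from 5 to 9, reaching 9 (46.1%) without replicate 2. The median pooled rank of 4440 was 943 over the strongest regions within 2 kb. Replicate ranks in place of the pooled rank gave 908 over the 5 genes listed in all 3 replicates and 2004 to 3188.25 with a replicate left out, over changing sets of genes. The other 30 values of these counts, and 26 of 32 values for single genes, stayed within 1.5 times or the replicate spread. Depth, which the lists do not give, limits what can be said of genes without a region: they were below these lists' cut, not shown to lack chiffon. No paired analysis was possible because there was 1 group.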
